A study of Homo sapiens with 6 samples.

Results

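The 10 genes described here belong to the Wnt pathway and were chosen by symbol from the 16832 genes listed in the deposited expression files. They are the R-spondin receptor genes LGR4 and LGR5, the membrane ubiquitin ligase genes RNF43 and ZNRF3, the scaffold gene AXIN2, the nuclear factor genes LEF1 and TCF7L2, and the genes DKK1, DKK3 and SFRP1 of secreted proteins. All 10 were listed in every library. RNA was sequenced from U251, an established human glioma cell line labelled wild type. Cells of 3 libraries had been kept for 18 days in SLCDS, a small-molecule mixture given by its acronym alone, and those of 3 control libraries had received PBS without SLCDS. A culture time is stated for SLCDS only, and nothing says whether the libraries of a group came from separate cultures, so the p-values measure the spread between these libraries, which may be technical.

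Wnt ligands bind Frizzled receptors and LRP co-receptors at the cell surface, which protects beta-catenin from a destruction complex built on axin scaffolds, and beta-catenin then acts on target genes through TCF and LEF proteins. Several targets feed back on the pathway. AXIN2 serves as a scaffold of the destruction complex, while RNF43 and ZNRF3 mark Frizzled receptors for removal, and R-spondins bound to LGR receptors switch these ligases off. Dickkopf and secreted Frizzled-related proteins act outside the cell, with DKK1 acting on LRP co-receptors and secreted Frizzled-related proteins on the ligands.

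Levels are given as FPKM, the fragments of a gene scaled by its transcript length and by the mapped fragments of the library. The steps between the deposited values returned whole fragment numbers for all 15906 genes with a value in 2 or more libraries, and these summed to 16414612 to 17017292 fragments in the SLCDS libraries and to 16127657 to 16812593 in the control libraries. Control replicate 3 stood apart from the other controls. The median chi-square of its fragment numbers was 15.0 against control replicate 1 and 14.5 against control replicate 2, compared with 1.03 between those 2 libraries, 1.03 to 1.29 among the SLCDS libraries and 0.455 for counting error alone. Against the SLCDS libraries it was 13.7 to 17.2 for control replicate 3 and only 2.93 to 3.80 for control replicates 1 and 2. All 6 astrocytic glioma markers passed the expression filter, and GFAP among them fell, with 127 to 141 FPKM in SLCDS libraries and 312 to 354 FPKM in control libraries (limma, adjusted p = 0.000596). The other markers of this list were not called over all libraries and did not share a direction. NES lay above control, with 250 to 256 FPKM in SLCDS and 201 to 227 FPKM in control. SOX2 and SOX9 lay below control in every SLCDS library, and VIM and S100B overlapped. Ranges did not overlap for 29.1% of all tested genes. The series calls the SLCDS cells neuronal-like. The 5 neuronal markers summed to 44.7 to 46.5 FPKM in SLCDS and to 58.4 to 59.1 FPKM in control, nearly all of it from TUBB3 and MAP2. Neither was called over all libraries. Without control replicate 3 both were called lower (limma, adjusted p = 0.00106 for TUBB3 and 5.7e-05 for MAP2), at a background of 11.7% of genes called lower. For MAP2 the library left out went the other way. It had 13.2 FPKM, below the 14.2 to 15.2 FPKM of the SLCDS libraries, so the MAP2 ranges overlapped over all libraries. RBFOX3, DCX and SYN1 stayed under 1 FPKM in every library. SYN1 went the other way from the sum, with 0.796 to 0.998 FPKM in SLCDS and 0.459 to 0.613 FPKM in control, and lay under the filter. The 3 endothelial markers summed to 4.63 to 5.44 FPKM in SLCDS and to 1.52 to 2.72 FPKM in control, mostly from CDH5, which rose (limma, adjusted p = 0.0106), with PECAM1 and VWF under 1 FPKM. The 5 fibroblast markers summed to 364 to 371 FPKM in SLCDS and to 363 to 395 FPKM in control, nearly all of it from COL1A2, with DCN and LUM under 1 FPKM. PDGFRB among them had 1.66 to 1.84 FPKM in SLCDS and at most 0.439 FPKM in control and was called higher (limma, adjusted p = 0.000696). It passed the expression filter through the SLCDS libraries alone, so this p is not taken as support for a rise. COL1A1, under the filter, had 0.462 to 0.663 FPKM in SLCDS and 0.881 to 1.16 FPKM in control. The 4 leukocyte markers summed to 3.79 to 4.95 FPKM in SLCDS and to 3.01 to 3.48 FPKM in control, and the 3 epithelial ones to at most 3.07 FPKM in SLCDS and at most 2.10 FPKM in control, with PTPRC and EPCAM under 1 FPKM. No marker was at 0 in every library, and the part of these cell types in the results below was not tested.

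Of the 10 genes, LGR5 was the single one to pass the test of SLCDS against control over all libraries. The test was limma on log2(FPKM + 1), with Benjamini-Hochberg adjustment over the 11506 genes that had at least 1 FPKM in 3 or more libraries, and a call needed an adjusted p under 0.05. Of the 10 genes 9 entered it, 1 rose, none fell and 8 were not called, at a background of 6.09% of tested genes called, 4.28% higher and 1.82% lower. RNF43, the tenth, lay under the filter. The FPKM ranges of SLCDS and control did not overlap for LGR5, DKK1 and DKK3 among the 9, while 29.1% of all tested genes had ranges that did not overlap, 15.5% with SLCDS above control and 13.6% below. They did not overlap for RNF43 either. The remaining 6 genes overlapped. The median log2 fold change of the 9 genes was 0.15, beside 0.00036 for all tested genes, and without control replicate 3 it was 0.056 beside 0.0019.

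**Figure D1:**
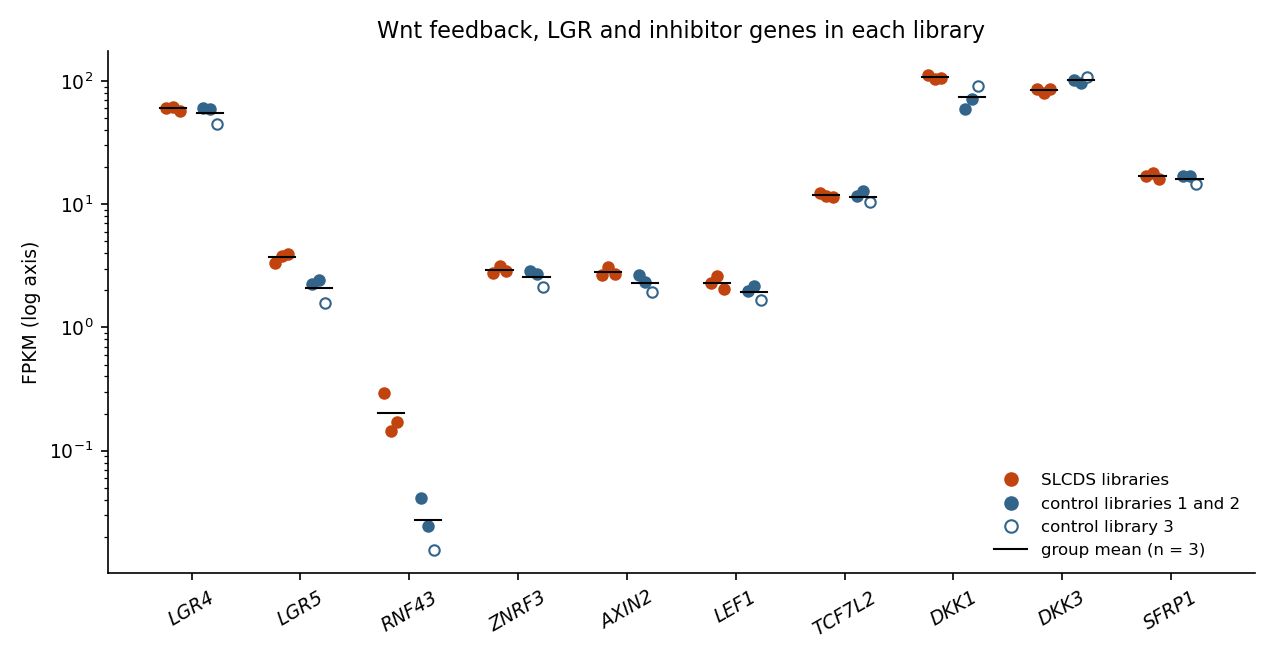
FPKM on a log axis (y) of the 10 genes (x) in each SLCDS library (orange, left) and each control library (blue, right; control replicate 3 open), with the mean of each group as a line. LGR5, RNF43 and DKK1 have all SLCDS libraries above all control libraries, DKK3 has them below, and the other 6 genes overlap.

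The receptor LGR5, known as a marker of several epithelial stem cell types and itself a Wnt target there, rose. It had 3.36, 3.83 and 3.94 FPKM in SLCDS libraries, against 2.26, 2.43 and 1.57 FPKM in control libraries. Every SLCDS library lay above every control library, and control replicate 3 was the lowest. LGR5 averaged 3.71 ± 0.31 FPKM in SLCDS libraries and 2.09 ± 0.456 FPKM in control (SD, n = 3 each), a ratio of 1.78, with a log2 fold change of 0.62 (SE 0.12; limma, adjusted p = 0.0305). These levels rested on 259, 291 and 310 fragments in SLCDS and on 169, 181 and 122 in control, and the ratio of the summed fragments, scaled to library totals, was 1.79 with a 95% exact interval of 1.59 to 2.00 that covers counting error only. In whole cultures a change in the number of cells that express a gene and a change in the RNA per cell cannot be told apart.

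The call for LGR5 depended on which libraries were used. Without control replicate 3 the log2 fold change was 0.49 and the limma adjusted p was 0.00143, at a background of 27.8% of genes called, and without control replicate 2 that p was 0.0445, while it was 0.0686 without control replicate 1 and 0.115, 0.164 and 0.17 without SLCDS replicates 1, 2 and 3. LGR5 was also past the threshold with library trends in transcript length and GC content removed (limma, adjusted p = 0.00301; background 18.0%) and in a voom fit of the fragment numbers (limma, adjusted p = 0.0307; background 6.17%), but not without the expression filter (0.0534) or with libraries scaled to the same sum (0.0789).

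LGR4, the related receptor that is expressed in many tissues, was far more abundant than LGR5. It had 60.9, 62.2 and 57.0 FPKM in SLCDS libraries, against 60.2, 59.0 and 44.7 FPKM in control libraries. The groups overlapped, and control replicate 3 was the one library well below the rest. LGR4 had a log2 fold change of 0.15 (SE 0.12; limma, adjusted p = 0.605), which without control replicate 3 came to 0.0093 (limma, adjusted p = 0.904). Within a library, where the scaling between libraries cancels, the ratio of LGR5 to LGR4 in FPKM was 0.0551, 0.0617 and 0.0691 in SLCDS and 0.0376, 0.0412 and 0.0351 in control. This ratio did not overlap between the groups, with means of 0.062 ± 0.00697 in SLCDS and 0.038 ± 0.00303 in control (SD, n = 3 each; exact 2-sided permutation test, p = 0.1, the smallest that 3 against 3 libraries allow).

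RNF43 was the least abundant of the 10 genes and had the largest ratio between the groups. It had 0.294, 0.145 and 0.171 FPKM in SLCDS libraries, against 0.041, 0.0246 and 0.0157 FPKM in control libraries. Behind these values lay 37, 18 and 22 fragments in SLCDS libraries and 5, 3 and 2 fragments in control libraries. All SLCDS libraries lay above all control libraries, and SLCDS replicate 1 was well above the other SLCDS libraries. The sums of 77 and 10 fragments gave a ratio, scaled to library totals, of 7.54, with a 95% exact interval of 3.89 to 16.4 for counting error only, and the ratio of mean FPKM came to 7.50, or 6.20 with control replicate 3 left out. An exact 2-sided permutation test over the libraries gave p = 0.1, the smallest it allows.

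A voom fit of the fragment numbers of all 15906 genes, chosen after the data were seen, gave RNF43 a log2 fold change of 2.76 (SE 0.51; limma, adjusted p = 0.0204), at a background of 5.36% of genes called, and of 2.46 (limma, adjusted p = 0.0079) without control replicate 3, at a background of 21.8%. On the log2(FPKM + 1) scale without a filter, which compresses the change of so low a gene, its log2 fold change was 0.23 (SE 0.047; limma, adjusted p = 0.0514). In GENCODE 29 the exons of RNF43 share 143 nucleotides with the neighbouring gene SUPT4H1 on the same strand, 57.6% of their length with AC004687.2 on the same strand and 20.3% with the antisense gene TSPOAP1-AS1. Where SUPT4H1 and AC004687.2 overlap RNF43, strand could not tell their fragments from those of RNF43. Whether the counting used strand is not given in the sources used here, so fragments of TSPOAP1-AS1 cannot be told apart there either. SUPT4H1 had 29.1, 30.03 and 29.3 FPKM in SLCDS libraries and 28.5, 28.2 and 34.1 FPKM in control libraries, and its groups overlapped. Of the other 9 genes, AXIN2 shares 25.2% of its exonic length with AC004805.1 on the same strand, and LGR5, LEF1, TCF7L2 and DKK1 share 3.96%, 5.20%, 4.45% and 9.61% with genes on the opposite strand.

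**Figure D2:**
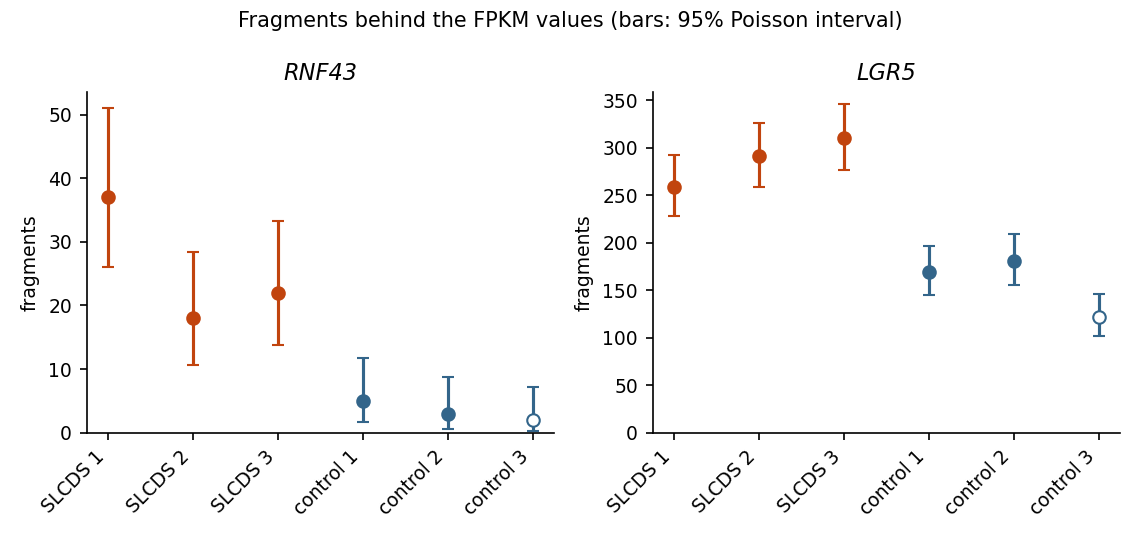
Fragments (y) behind the FPKM values of RNF43 (left) and LGR5 (right) in each library (x), with 95% exact Poisson intervals as bars and control replicate 3 open. RNF43 has 18 to 37 fragments in SLCDS libraries and 2 to 5 in control libraries, and LGR5 has 259 to 310 in SLCDS and 122 to 181 in control.

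RefSeq lists 2 transcript starts for RNF43, and the bases just upstream of each are shown because this gene had the largest ratio between the groups. Both lie on the minus strand of build GRCh38.p14, at chr17:58417535-58417784 for the first and chr17:58402722-58402971 for the second, printed 5′ to 3′ up to the base before the start. Neither holds a TCF/LEF core, searched on both strands as CTTTGAA or CTTTGAT, so no base is in capitals.
RNF43 start 1: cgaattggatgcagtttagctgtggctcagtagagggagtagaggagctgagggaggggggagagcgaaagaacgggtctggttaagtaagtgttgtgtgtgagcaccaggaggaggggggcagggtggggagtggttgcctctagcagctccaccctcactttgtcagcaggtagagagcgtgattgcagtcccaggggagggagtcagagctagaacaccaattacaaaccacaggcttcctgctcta
RNF43 start 2: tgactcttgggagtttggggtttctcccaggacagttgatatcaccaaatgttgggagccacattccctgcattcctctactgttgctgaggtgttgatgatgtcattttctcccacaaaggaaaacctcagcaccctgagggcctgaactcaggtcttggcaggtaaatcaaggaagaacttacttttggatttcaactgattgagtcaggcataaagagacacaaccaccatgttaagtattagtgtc
The first window holds 4 CpG dinucleotides and 56.0% G and C, and the second holds 0 CpG dinucleotides and 45.2% G and C.

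ZNRF3, the close relative of RNF43 with the same action on Frizzled receptors, was the more abundant ligase gene in every library. It had 2.77, 3.16 and 2.90 FPKM in SLCDS libraries, against 2.85, 2.73 and 2.12 FPKM in control libraries. The groups overlapped, and the log2 fold change of ZNRF3 was 0.15 (SE 0.10; limma, adjusted p = 0.513). The ratio of RNF43 to ZNRF3 in FPKM was 0.106, 0.046 and 0.059 in SLCDS and 0.0144, 0.00902 and 0.00743 in control, so RNF43 stayed the minor ligase transcript in both groups. That ratio did not overlap between the groups (exact 2-sided permutation test, n = 3 each, p = 0.1, the smallest possible).

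AXIN2, a scaffold of the destruction complex and a widely used readout of beta-catenin activity, was not called. It had 2.66, 3.08 and 2.72 FPKM in SLCDS libraries, against 2.67, 2.33 and 1.94 FPKM in control libraries. Control replicate 1 lay between the SLCDS libraries, so the groups overlapped by a narrow margin. AXIN2 had a log2 fold change of 0.21 (SE 0.10; limma, adjusted p = 0.344), and of 0.13 (limma, adjusted p = 0.296) when control replicate 3 was left out. Over 19 other settings it ranged from 0.13 to 0.29, and none of them passed the threshold.

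The nuclear factors did not pass the test either. LEF1, a DNA-binding partner of beta-catenin that is itself a Wnt target in many tissues, had 2.30, 2.60 and 2.04 FPKM in SLCDS libraries, against 1.99, 2.18 and 1.66 FPKM in control libraries. Its groups overlapped, with a log2 fold change of 0.17 (SE 0.10; limma, adjusted p = 0.447), on 77 to 118 fragments per library. TCF7L2, the TCF family member that is abundant in many adult tissues, had 12.3, 11.7 and 11.4 FPKM in SLCDS libraries, against 11.6, 12.8 and 10.4 FPKM in control libraries. The SLCDS range of TCF7L2 lay within the control range, with a log2 fold change of 0.03 (SE 0.09; limma, adjusted p = 0.897), and -0.04 (limma, adjusted p = 0.662) without control replicate 3. LEF1 stood at 0.187, 0.222 and 0.180 of the TCF7L2 level in SLCDS and at 0.172, 0.171 and 0.160 of it in control, which did not overlap (exact 2-sided permutation test, n = 3 each, p = 0.1, the smallest possible).

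Among the secreted proteins, the Dickkopf genes DKK1 and DKK3 were the most abundant of the 10 genes together with LGR4, and they lay on opposite sides of control. DKK1, an inhibitor that binds LRP co-receptors and is a direct Wnt target in several cell types, had 113, 104 and 106 FPKM in SLCDS libraries, against 59.7, 71.6 and 91.8 FPKM in control libraries. All SLCDS libraries lay above all control libraries, the SLCDS libraries were close to each other, and the control libraries were spread widely with control replicate 3 the highest. DKK1 averaged 108 ± 4.87 FPKM in SLCDS libraries and 74.4 ± 16.2 FPKM in control (SD, n = 3 each), a ratio of 1.45, and the log2 fold change of 0.55 (SE 0.15; limma, adjusted p = 0.0895) did not pass the threshold. Without control replicate 3 the ratio was 1.64 and the log2 fold change 0.71 (SE 0.069; limma, adjusted p = 5.2e-05), at a background of 27.8% of genes called. DKK1 was also past the threshold with the length and GC trends removed (limma, adjusted p = 0.00591; background 18.0%), with quantile normalization (0.0106) and with libraries scaled to the same sum (0.0166).

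The bases upstream of the RefSeq transcript start of DKK1 are shown because they hold the single TCF/LEF core found in the 8 windows listed for these genes. They lie on the plus strand of build GRCh38.p14 at chr10:52314031-52314280 and are printed 5′ to 3′, with the match to CTTTGAA in capitals.
DKK1: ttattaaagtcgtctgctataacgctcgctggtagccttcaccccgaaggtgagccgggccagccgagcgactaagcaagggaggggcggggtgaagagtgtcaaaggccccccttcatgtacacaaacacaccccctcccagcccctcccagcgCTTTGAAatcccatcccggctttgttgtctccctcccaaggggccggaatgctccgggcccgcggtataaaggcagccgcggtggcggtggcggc
The match begins 95 bases before the start, and a TATAAA box begins 30 bases before it. Of all 35116 RefSeq windows of the same length, 3.80% hold CTTTGAA, 2.26% hold CTTTGAT and 10.7% hold TATAAA on either strand. RefSeq windows were matched for 5 of the 10 genes, namely LGR4, RNF43, LEF1, TCF7L2 and DKK1, and not for LGR5, ZNRF3, AXIN2, DKK3 and SFRP1. A match is a description of the letters and not evidence of binding.

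DKK3, a divergent member of the Dickkopf family, had 86.1, 80.5 and 86.1 FPKM in SLCDS libraries, against 101, 96.4 and 108 FPKM in control libraries. Every SLCDS library lay below every control library. The DKK3 means were 84.2 ± 3.25 FPKM in SLCDS libraries and 102 ± 5.79 FPKM in control (SD, n = 3 each), a ratio of 0.827, and the log2 fold change of -0.27 (SE 0.076; limma, adjusted p = 0.0987) missed the threshold. Without control replicate 3 the log2 fold change of DKK3 was -0.23 (limma, adjusted p = 0.00414), and with the length and GC trends removed it was -0.26 (limma, adjusted p = 0.00377).

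The order of the Dickkopf genes differed between the groups. DKK1 was above DKK3 in every SLCDS library, with ratios of 1.31, 1.29 and 1.23, and below it in every control library, with ratios of 0.589, 0.743 and 0.85. The ratio averaged 1.28 ± 0.042 in SLCDS and 0.727 ± 0.131 in control (SD, n = 3 each; exact 2-sided permutation test, p = 0.1, the smallest possible), and the mean in SLCDS was 1.76 times that in control, or 1.92 times with control replicate 3 left out. In all, 4 within-library ratios were computed, each with p = 0.1 by the exact permutation test, and adjustment over the 4 leaves p = 0.1. DKK1 alone lay above control and DKK3 alone below it in every SLCDS library, so their ratio could not overlap. LGR5 and RNF43, the numerators of other ratios, did not overlap by themselves either. The ratios with these genes are thus no separate support. The ratio of LEF1 to TCF7L2 did not overlap although each of the 2 genes overlapped alone. That ratio is not taken as support either, as the share of other gene pairs that do not overlap was not computed.

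**Figure D3:**
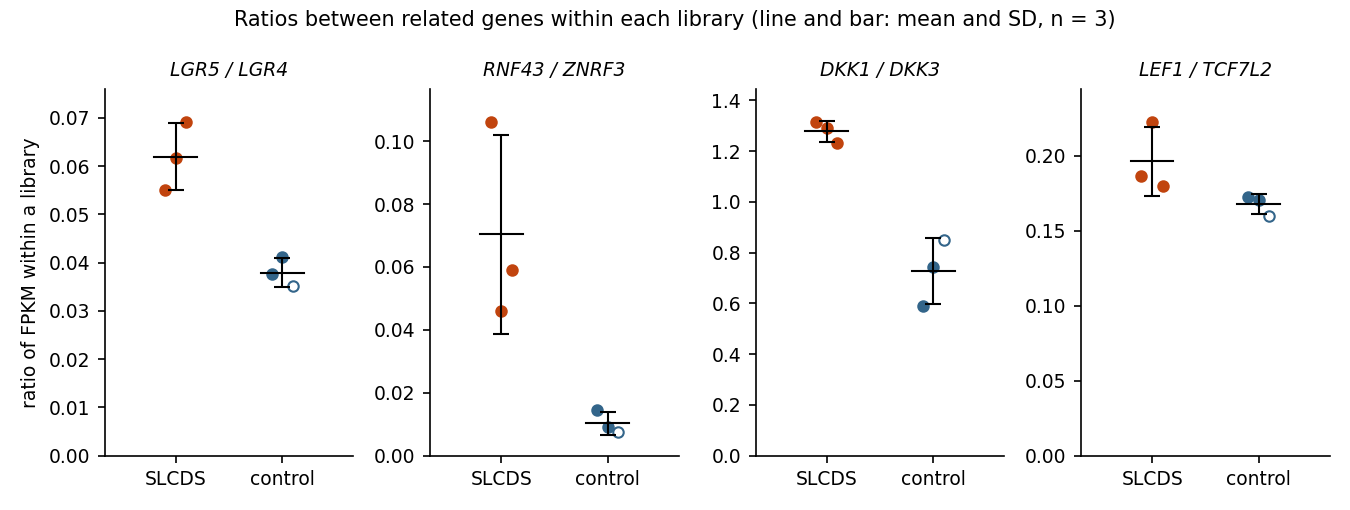
Ratio of FPKM (y) between related genes within each library for SLCDS (orange, left) and control (blue, right; control replicate 3 open), with the mean and SD of 3 libraries. The ratio of DKK1 to DKK3 is 1.23 to 1.31 in SLCDS and 0.589 to 0.85 in control, and the groups do not overlap in any of the 4 panels. For DKK1 to DKK3 this follows from the levels of the single genes.

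SFRP1, a secreted Frizzled-related protein, was close to level. It had 17.1, 18.0 and 16.1 FPKM in SLCDS libraries, against 16.9, 17.0 and 14.5 FPKM in control libraries, and the groups overlapped. SFRP1 had a log2 fold change of 0.08 (SE 0.087; limma, adjusted p = 0.691), and of 0.011 (limma, adjusted p = 0.906) when control replicate 3 was left out.

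**Figure D4:**
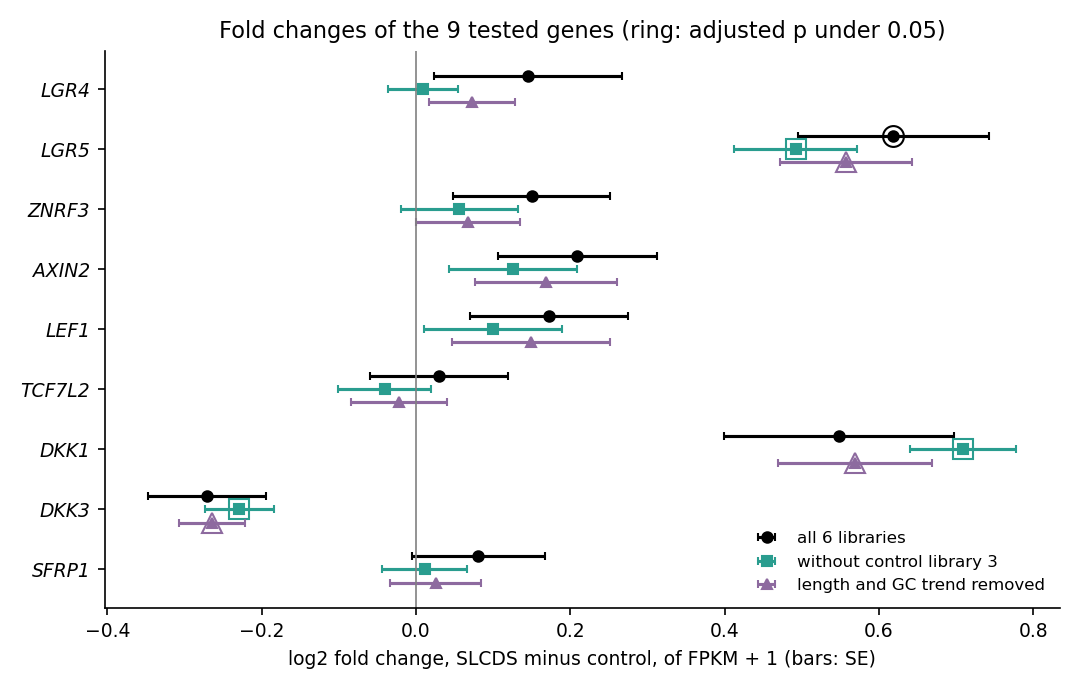
Log2 fold change of FPKM + 1, SLCDS minus control (x), with its SE, for the 9 tested genes (y) over all libraries (circles), without control replicate 3 (squares) and with the length and GC trends removed (triangles); rings mark an adjusted p under 0.05. LGR5 is ringed in all 3 fits, DKK1 and DKK3 in the fits without control replicate 3 and without the trends, and the other 6 genes in none.

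Ordered by mean FPKM, the SLCDS libraries ran DKK1, DKK3, LGR4, SFRP1, TCF7L2, LGR5, ZNRF3, AXIN2, LEF1 and RNF43. The ranges of neighbours in this order overlapped between ZNRF3 and AXIN2 only. The control libraries ran DKK3, DKK1, LGR4, SFRP1, TCF7L2, ZNRF3, AXIN2, LGR5, LEF1 and RNF43, and there the ranges overlapped between DKK1 and LGR4 and along the whole run from ZNRF3 to LEF1. Thus LGR5 lay above ZNRF3, AXIN2 and LEF1 in each SLCDS library, while it lay between the highest and lowest of them in control replicates 1 and 2 and below all of them in control replicate 3. Mean FPKM over the 6 libraries spanned a factor of 808 between the lowest gene, RNF43, and the highest, DKK3.

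Of the 10 genes, 8 were lowest in control replicate 3, namely LGR4, LGR5, RNF43, ZNRF3, AXIN2, LEF1, TCF7L2 and SFRP1, and DKK3 was highest there. Among the 9 tested genes this was 7, while control replicate 3 was the lowest library for 35.6% of all tested genes and the highest for 37.2%. Without that library, 3 of the 9 genes were called, LGR5 and DKK1 higher and DKK3 lower, at a background of 16.1% called higher and 11.7% called lower. The 6 others were not called without it.

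The rest of the pathway was read from a list of 95 further genes, ordered by role. Of these 88 were listed in the files, 53 were tested, 3 were called higher and none lower, which is 5.66% beside the background of 6.09%. Their median log2 fold change was 0.002. Without control replicate 3, 11 of 52 tested genes were higher and 9 lower, 38.5% beside a background of 27.8%. The 11 include the ligand genes WNT10A and WNT6, which passed the filter in that fit through the SLCDS libraries alone. WNT10A did so in the fit over all libraries as well. The remaining 7 genes, among them 1 R-spondin gene, were not analysed here.

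Among the ligands 5 of 16 were tested and WNT10A was called higher. It had 2.09, 1.51 and 1.71 FPKM in SLCDS libraries, against 0.301, 0.329 and 0.631 FPKM in control libraries, with a log2 fold change of 0.97 (SE 0.12; limma, adjusted p = 0.00447). The groups were far apart, on 56 to 79 fragments in SLCDS and 11 to 24 in control, and leaving out any 1 SLCDS library put WNT10A under the filter. It passed the filter through the SLCDS libraries alone, so its adjusted p is not taken as support for a rise. WNT6, its neighbour on the chromosome in RefSeq, is named with its values in view. WNT6 had 3.25, 2.63 and 3.63 FPKM in SLCDS libraries, against 0.536, 0.715 and 1.99 FPKM in control libraries. It just missed the threshold (limma, log2 fold change 1.06, SE 0.24, adjusted p = 0.0507). Without control replicate 3 its log2 fold change was 1.35 (limma, adjusted p = 1.45e-05), at a background of 27.8% of genes called. In that fit WNT6 passed the filter through the SLCDS libraries alone, so this p is not taken as support for a rise. The most abundant tested ligand genes were WNT5B, with 4.14 ± 0.266 FPKM in SLCDS and 4.89 ± 0.791 FPKM in control, and WNT3, with 2.60 ± 0.239 FPKM in SLCDS and 2.89 ± 0.402 FPKM in control (SD, n = 3 each), and neither was called. The 3 R-spondin genes listed, which encode the ligands of LGR4 and LGR5, stayed at or under 0.178 FPKM in every library.

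For ligand export, WLS, the carrier of Wnt proteins to the surface, averaged 48.1 ± 1.1 FPKM in SLCDS libraries and 42.2 ± 2.59 FPKM in control libraries, and PORCN, the enzyme that acylates them, 8.23 ± 0.912 FPKM in SLCDS and 9.48 ± 0.554 FPKM in control (SD, n = 3 each). Neither was called over all libraries, and WLS was called higher without control replicate 3 (limma, adjusted p = 0.0385). None of 12 tested receptor genes was called. PTK7, a co-receptor, averaged 42.3 ± 1.12 FPKM in SLCDS libraries and 49.2 ± 2.34 FPKM in control, and the Frizzled gene FZD6 31.5 ± 1.14 FPKM in SLCDS and 25.6 ± 2.29 FPKM in control (SD, n = 3 each). Without control replicate 3, 3 receptor genes were higher and 3 lower, FZD6 among the higher (limma, adjusted p = 0.00609) and PTK7 among the lower (limma, adjusted p = 0.0114).

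Of 4 tested inhibitors outside the cell none was called. TPBG averaged 80.3 ± 5.65 FPKM in SLCDS libraries and 69.3 ± 7.29 FPKM in control, and KREMEN1, a receptor of Dickkopf proteins, 2.13 ± 0.21 FPKM in SLCDS and 2.02 ± 0.0184 FPKM in control (SD, n = 3 each). TPBG was higher without control replicate 3, with a log2 fold change of 0.28 (limma, adjusted p = 0.0102), and it was the 1 gene called of 3 fitted. In the cytoplasm 14 genes were tested and none was called, against 1 lower without control replicate 3. CTNNB1, which encodes beta-catenin, averaged 143 ± 2.37 FPKM in SLCDS libraries and 144 ± 1.78 FPKM in control, and DVL3, which relays the signal from Frizzled, 67.6 ± 3.38 FPKM in SLCDS and 66.7 ± 6.17 FPKM in control (SD, n = 3 each). Of 11 nuclear cofactors none was called, and the most abundant were the Groucho family genes TLE5, with 229.7 ± 7.09 FPKM in SLCDS and 230.04 ± 46.8 FPKM in control, and TLE2, with 42.3 ± 2.33 FPKM in SLCDS and 47.9 ± 6.76 FPKM in control (SD, n = 3 each). Without control replicate 3, 2 of the 11 cofactors were higher and 5 lower, which is 63.6% beside the background of 27.8%, and TLE5 was among the higher, with a log2 fold change of 0.18 (limma, adjusted p = 0.0119).

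Of 5 tested further targets 2 rose and none fell, 40% of a small group beside the background of 6.09% called. MYC, named with its values in view, went the other way and was not called (log2 fold change -0.27, SE 0.088; limma, adjusted p = 0.156). It had 2.53 to 3.08 FPKM in SLCDS libraries and 3.38 to 3.86 FPKM in control libraries. TNFRSF19, a TNF receptor family member, had 8.62, 9.42 and 8.24 FPKM in SLCDS libraries, against 5.87, 4.88 and 3.52 FPKM in control libraries, with a log2 fold change of 0.78 (SE 0.15; limma, adjusted p = 0.0268). CCND1, the gene of the G1 cyclin D1, had 22.1, 23.0 and 24.4 FPKM in SLCDS libraries, against 18.4, 18.4 and 16.3 FPKM in control libraries, with a log2 fold change of 0.37 (SE 0.078; limma, adjusted p = 0.0374). The SLCDS libraries lay above the control libraries for both. Leaving out any 1 SLCDS library left neither past the threshold, with limma adjusted p values of 0.118 to 0.152 for TNFRSF19 and 0.148 to 0.215 for CCND1, and so did leaving out control replicate 2, with 0.0765 and 0.0857, and for CCND1 control replicate 1, with 0.0841.

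**Figure D5:**
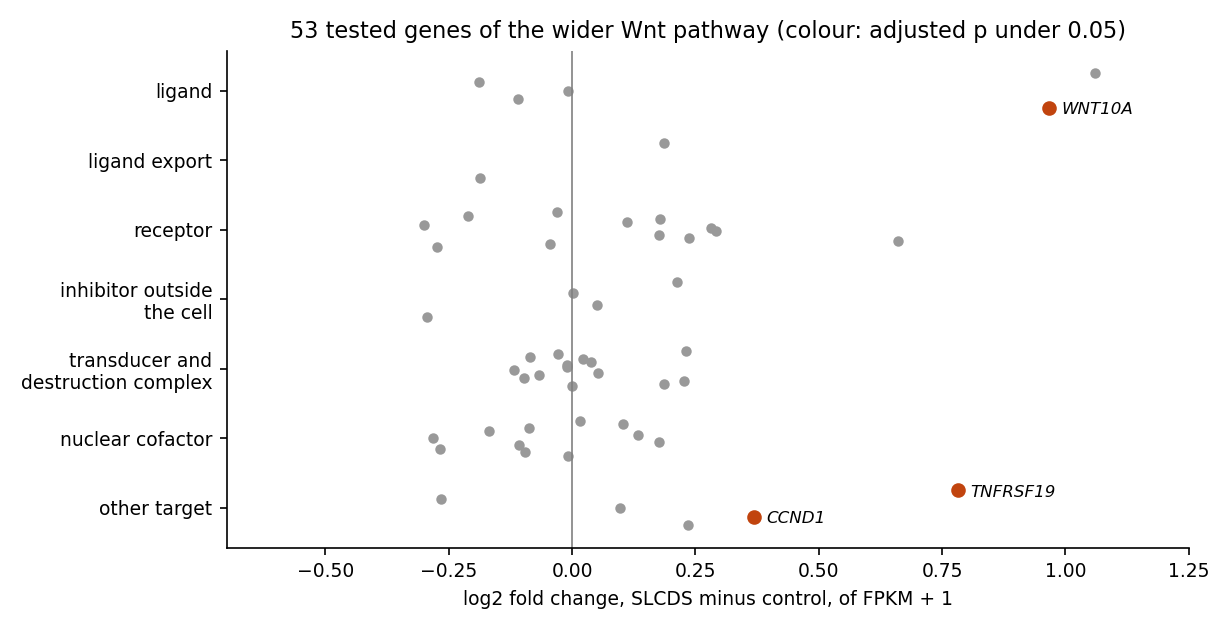
Log2 fold change of FPKM + 1, SLCDS minus control (x), of the 53 tested genes of the wider pathway list by role (y); each point is a gene, and coloured points have an adjusted p under 0.05. WNT10A, TNFRSF19 and CCND1 are coloured, and the uncoloured ligand at the far right is WNT6.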

How the data were processed

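RNA was isolated with TRIzol, and the VAHTS Universal V6 kit was used for library construction, per the labels' protocols. The authors deposited 1 file of FPKM values per library, on a linear scale. No aligner, counter or annotation is named in the sources used here. GRCm38 and mm10 appear in the submitters' processing notes, although the line is human. The transcript lengths implied by the FPKM lay within 5% of the GENCODE 29 length for 589 of 1123 human genes (52.4%) with 1 transcript, at a median ratio of 1.01, and no coordinates were taken from the files.

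Fragment numbers were recovered as the smallest whole numbers in proportion to FPKM times relative depth, which was read from the steps between low values, within 0.1 of a fragment. A gene whose fragment numbers share a divisor comes out too low by this method. Fits used limma 3.58.1 in R 4.3.3 on log2(FPKM + 1), with the prior variance allowed to vary with expression. Fold changes of low genes are understated on this scale. Length and GC trends were removed per library with splines of 4 degrees of freedom. Promoter windows of 250 bases came from RefSeq, GRCh38.p14. In each role of the wider list, up to 4 called genes were named and, with fewer than 2 called, also the 2 most abundant tested ones. The 10 genes, the lists and the tests were chosen with earlier results of these data known. The procedures were tested on simulated data. Python 3.11.15 with pandas 2.3.3, numpy 2.4.6, scipy 1.17.1 and matplotlib 3.10.9 served for the other steps.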

Additional observations from a re-analysis of the deposited data

How the results depend on the processing

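Over all libraries 701 genes were called (492 higher, 209 lower). The count was 324 with a mean FPKM of at least 5, 455 with a replicate block, 196 to 3182 on leaving out 1 library, 2024 with length and GC trends removed and 3470 by voom without a filter and without control replicate 3. The 3182 called without control replicate 3 held 1842 higher and 1340 lower genes, and 691 of the 701 were among them. Among the 10 genes 1 was called. The count was 0 without a filter, with a mean FPKM of at least 5 and with the replicate block, 2 with quantile normalization and with voom without a filter, 3 with the trends removed, 4 by voom without a filter and without control replicate 3, and 0 to 3 on leaving out 1 library. On the wider list 3 were called. The count was 1 with a mean FPKM of at least 5, 5 by voom without a filter, 14 with the trends removed, 23 by voom without a filter and without control replicate 3, and 0 to 20 on leaving out 1 library. The cause of these differences in count was not tested. Log2 fold changes near 0 changed sign. TCF7L2 was -0.0216 with the trends removed, -0.0440 by voom without a filter and without control replicate 3, and -0.0409 to 0.0976 on leaving out 1 library. KREMEN1 was -0.0339 with quantile normalization, -0.0159 with the trends removed, and -0.0020 to 0.0924 on leaving out 1 library. CTNNB1 was 0.0202 with libraries scaled to the same sum, 0.0409 with quantile normalization, and -0.0232 to 9.37e-05 on leaving out 1 library. DVL3 was -0.0273 with the trends removed, -0.0553 by voom without a filter and without control replicate 3, and -0.0548 to 0.0700 on leaving out 1 library. TLE5 was -0.00036 with median ratio scaling, and -0.0829 to 0.176 on leaving out 1 library. None of these was called with its sign turned. Deviations of same-numbered libraries from their group means had correlations of -0.33, 0.36 and 0.065. SLCDS replicate 2 had correlations of 0.37 and 0.36 with control replicates 1 and 2, and of -0.41 with control replicate 3. The control deviations thus mainly set control replicate 3 against the others, so this check cannot show or exclude a pairing. Under the replicate block the limma adjusted p of LGR5 was 0.0605. At 2 to 37 fragments per library RNF43 is limited by depth. The fits with trends removed and by voom were chosen after the data were seen.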
